A study of Mus musculus with 15 samples.

Results

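The 9 genes described here encode the proteins that carry calcium out of a neuron across its plasma membrane. They are the 4 plasma membrane calcium ATPases (PMCAs, Atp2b1 to Atp2b4), the 3 sodium/calcium exchangers (NCXs, Slc8a1 to Slc8a3) and 2 potassium-dependent sodium/calcium exchangers (NCKXs, Slc24a2 and Slc24a3). They were chosen by symbol, through the Ensembl gene identifiers of the count tables, as 9 of 38561 genes listed, and all 9 passed the filter on low counts. The RNA came from Purkinje cells (PCs) cut by laser from cerebellar sections of male mice of 1 strain, labelled C56/BL6, on the day of birth (P0) and at the postnatal ages P4, P8, P14 and P21. The labels name no mutation and no treatment. Each of the 5 ages had 3 samples, 15 in all, described by the study as biological replicates. Single PC bodies were captured from P4 on, whereas at P0 clusters of PCs were cut, so age and capture cannot be told apart for P0.

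PCs are large inhibitory neurons that project to the cerebellar nuclei and carry large calcium loads in their dendrites. PMCAs bind calcium tightly, pump it with energy from ATP and are activated by calmodulin. The exchangers bind calcium less tightly but move more of it, driven by the sodium gradient, and NCKXs also use the potassium gradient. Atp2b2 encodes PMCA2, a fast pump known from PCs and from the hair bundles of the inner ear, and mouse mutations in it cause deafness and ataxia.

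The 4 PMCA genes were read apart by their sequence, so the stretch that carries the pump's reaction is shown for Atp2b1, Atp2b2 and Atp2b4. It surrounds the codon of the aspartate that takes up the phosphate of ATP in every pump cycle, read from the GRCm38 genome on the coding strand (exon numbers from GENCODE M21). Capitals mark the 5 codons of the conserved aspartate-lysine-threonine-glycine-threonine motif, with 21 bases on either side.
Atp2b1, chr10:98999796-98999852, plus strand, exon 10: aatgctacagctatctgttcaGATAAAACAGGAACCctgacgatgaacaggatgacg
Atp2b2, chr6:113789882-113789938, minus strand, exon 13: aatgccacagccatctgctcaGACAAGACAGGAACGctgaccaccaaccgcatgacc
Atp2b4, chr1:133731792-133731848, minus strand, exon 9: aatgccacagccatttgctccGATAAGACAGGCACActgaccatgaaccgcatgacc
Of these 57 bases, 12 differed from Atp2b2 in Atp2b1 and 7 in Atp2b4, among them 3 of the capitals in both. Over the aligned coding bases, the 6 PMCA pairs were 73.0% to 78.7% identical, and their longest identical run was 56 bases, between Atp2b2 and Atp2b3. No run of 100 bases in the transcripts of 7 of the 9 genes occurred in another annotated gene. For Atp2b1 0.134% of such runs did, and for Slc8a1 1.05%. The coding bases of Slc24a2 and Slc24a3 were 66.3% identical, and those of the 3 Slc8a pairs 69.2% to 73.8%.

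Total counts on genes ranged from 3409371 to 7814951 per sample. Replicates of 1 age differed beyond counting noise, the chi-square value averaged over genes being 15.7 to 48.2 where counting alone gives about 1. The labelled cell type was checked with 6 PC markers (Pcp2, Pcp4, Calb1, Car8, Itpr1 and Ppp1r17). Their summed level went from a median of 5465 CPM (counts scaled to equal library sizes) at P0 to 45300 at P21, and all 6 rose with age (median slope 0.134 log2 units per day). Markers of other cells were present. The 8 glial markers summed to between 2892 and 9648 CPM, and the sum was highest at P8. Fabp7 held much of that sum (mean 4662 CPM at P8), whereas Gdf10, Slc1a3 and Hopx had their highest means at P14 and Glul at P21. With age 3 of the 8 rose and 2 fell by edgeR, against 12.1% and 14.1% of all genes tested. The 4 granule neuron markers, of which 3 rose, summed to between 150.2 and 922.4 CPM. The 3 interneuron markers summed to between 4.17 and 101.5 CPM. The 3 vascular markers, of which 1 fell, summed to between 16.0 and 120.6 CPM and the 4 microglial markers to between 0 and 25.5 CPM. The 5 oligodendrocyte markers, all 5 of which rose with age, went from a median of 17.7 CPM at P0, where Mag and Mobp were at 0, to 467.7 CPM at P21. The share of reads tallied as no feature, which can include reads within genes, was 24.1% to 29.8% at P0 and 16.7% to 23.4% later. The part of these differences in the results below was not tested, and in bulk samples fewer cells of a type and less RNA per cell cannot be told apart.

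Atp2b2 was the dominant gene of the set at every age and climbed through the first 2 postnatal weeks. Levels between genes are given as RPKM (counts per kilobase of summed exon length, scaled by the total counts on genes). Atp2b2 measured 37.8, 59.7 and 53.7 RPKM in the 3 samples at P0, 100.7, 96.2 and 84.6 at P4, and 156.2, 166.1 and 169.3 at P8. It measured 297.3, 208.0 and 251.4 RPKM at P14 and 269.1, 253.0 and 328.5 at P21. The P0, P4, P8 and P14 samples did not overlap with each other, whereas the P14 and P21 samples did. P14 replicate 2, the lowest Atp2b2 sample of its age, had the highest sum of granule neuron markers of all samples (922.4 CPM). At P8, too, the sample with the lowest Atp2b2 level had the highest such sum of its age. At P0, P4 and P21, however, the sample with the highest Atp2b2 level had it. Deviations of Atp2b2 from the time point means had r = -0.045 with those of the granule neuron sum. The part of granule neuron RNA in the Atp2b2 level was not tested. The mean rose from 50.4 ± 11.3 RPKM (SD, n = 3) at P0 to 283.5 ± 39.8 at P21. In the fit across all genes, Atp2b2 was 7.19-fold higher at P21 than at P0 (log2 fold change 2.85, SE 0.19, adjusted p = 2.89e-08, edgeR), and its slope was 0.135 log2 units per day (SE 0.014, adjusted p = 8.51e-07).

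The remaining PMCA genes had no trend that passed the threshold over all genes (edgeR). Atp2b1 encodes PMCA1, the pump found in most cell types. It measured 15.01, 20.5 and 19.4 RPKM at P0, 19.9, 12.7 and 15.7 at P4, and 23.1, 14.1 and 16.7 at P8. It measured 12.7, 16.5 and 11.8 RPKM at P14 and 9.50, 9.10 and 10.8 at P21. All 3 samples at P21 lay below the other 12. The mean was 18.3 ± 2.89 RPKM at P0 and 9.81 ± 0.909 at P21 (SD, n = 3 each), but the slope of -0.024 log2 units per day (SE 0.010) did not pass the threshold over all genes (adjusted p = 0.0909, edgeR). Without P0 replicate 1 the slope was -0.030 with an adjusted p of 0.0432, and without the TMM scaling it was -0.041 with an adjusted p of 0.00698, so the call depended on 1 library and on the scaling. At each of the 5 ages, the sample with the highest Atp2b1 level was also the one with the highest sum of granule neuron markers. Examples were P14 replicate 2 with 922.4 CPM and P8 replicate 1 with 667.5 CPM. Neurod1 made up most of the sum in these samples, with 650.7 CPM in P8 replicate 1. At P14 all 4 markers were highest in replicate 2. At P8, however, Gabra6 and Cbln3 were highest in replicate 3 (8.32 and 9.40 CPM). At P21 Gabra6 and Slc17a7 were highest in replicate 1 (74.8 and 39.7 CPM). Over all 15 samples, the deviations of Atp2b1 from the time point means had r = 0.783 with those of the granule neuron sum. With those of the microglial sum r was 0.663. Both values describe samples that share capture and depth. The part of granule neuron or microglial RNA in the Atp2b1 level was not tested.

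Atp2b3 and Atp2b4 were sparse. Atp2b3, which encodes the neuronal PMCA3, had 1 to 104 counts per sample, with means of 0.814 ± 0.361 RPKM at P4 and 1.31 ± 0.289 at P8, and of 2.37 ± 0.414 at P14 and 2.23 ± 0.989 at P21 (SD, n = 3). At P0 the 3 samples held 104, 37 and 1 counts, and the mean of 2.12 RPKM there was 0.879 without replicate 1. Atp2b4, which encodes PMCA4, had 201, 53 and 7 counts at P0, 11, 85 and 33 at P4, and 15, 13 and 1 at P8, followed by 61, 105 and 128 at P14 and 13, 23 and 99 at P21. The P8 and P14 samples of Atp2b4 did not overlap, but the difference did not pass the threshold (log2 fold change 3.29, SE 1.16, adjusted p = 0.182, edgeR). The slopes were 0.044 (SE 0.040, adjusted p = 0.458) for Atp2b3 and -0.0058 (SE 0.050, adjusted p = 0.951) for Atp2b4.

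**Figure D1:**
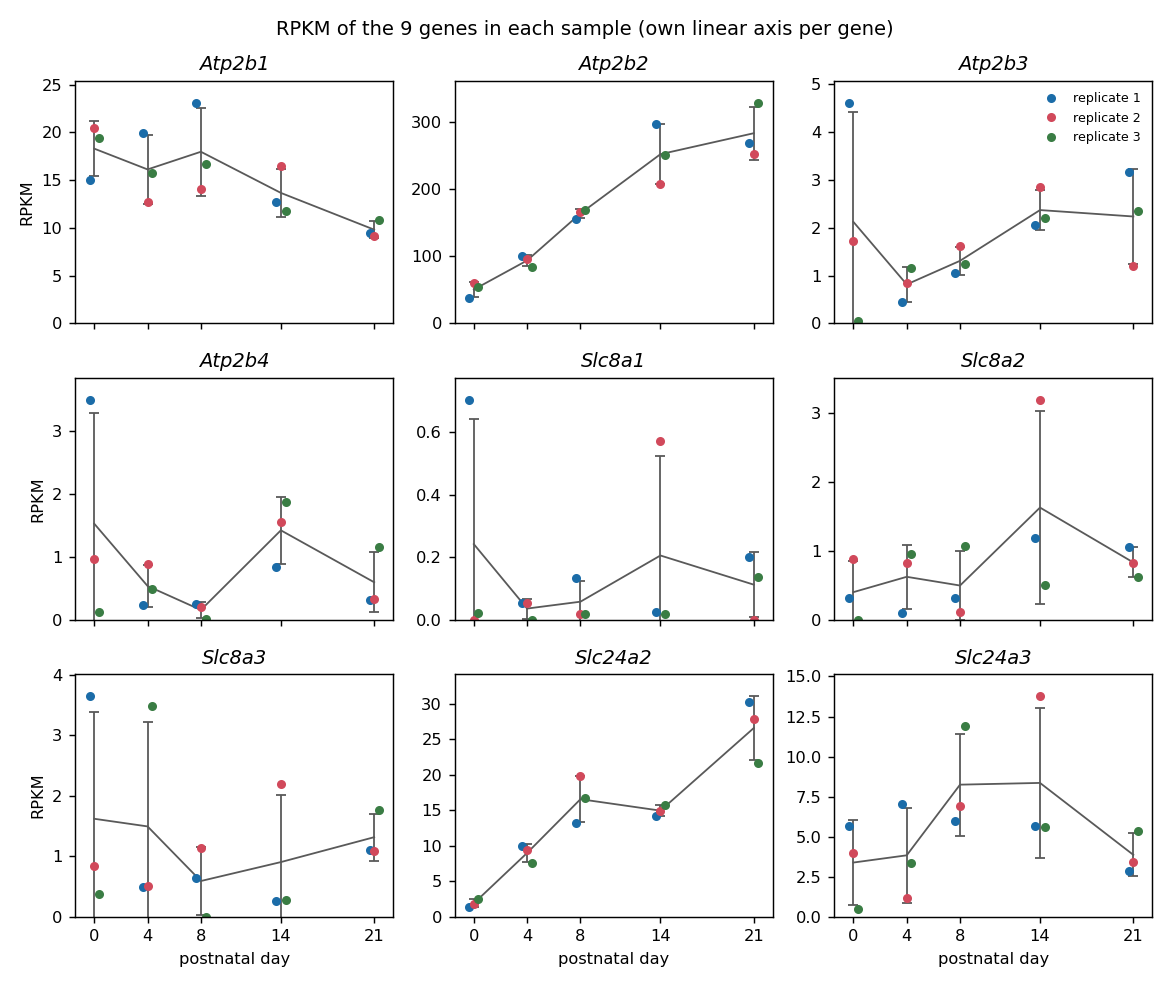
RPKM of each of the 9 genes (vertical, own linear axis per gene) against postnatal day (horizontal). Points are samples, coloured by replicate number, and the line with bars gives the mean ± SD of 3 samples. Atp2b2 ascends from 37.8 to as much as 328.5 RPKM and Slc24a2 from 1.41 to as much as 30.3, while Slc8a1 stays at or below 0.703.

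As the share of the summed PMCA RPKM, Atp2b2 took 69.1 ± 6.18% at P0, 84.3 ± 2.30% at P4 and 89.4 ± 2.53% at P8 (SD, n = 3). It took 93.3 ± 2.17% at P14 and 95.7 ± 0.295% at P21. The share of Atp2b1 went from 25.3 ± 1.03% at P0 to 3.33 ± 0.150% at P21. With 2 genes holding most of the sum, a larger share of 1 leaves a smaller share for the other. The summed PMCA level was 72.3 ± 11.02 RPKM at P0 and 296.2 ± 41.5 at P21. Atp2b3 and Atp2b4 took their largest shares in P0 replicate 1, with 7.56% and 5.75%, and at P21 neither exceeded 1.12% in any sample. The log2 ratio of Atp2b2 to Atp2b1 (RPKM + 0.1) was 1.44 ± 0.11 in the P0 samples, 2.56 ± 0.31 in those of P4, 3.21 ± 0.41 in those of P8, 4.197 ± 0.48 in those of P14 and 4.83 ± 0.07 in those of P21. It rose with postnatal day over the 15 samples (Pearson r = 0.958, Spearman rho = 0.971, 2-sided permutation p = 1e-05 for both, the smallest that 100000 permutations can give; adjusted p = 4e-05 over 4 pairs). The 3 samples at P21 lay farthest from the median day, and leaving out any 2 of them gave r = 0.949 to 0.954. The ratio of Atp2b2 to Atp2b3 showed no such relation that passed the test (r = 0.310, rho = 0.251, permutation p = 0.273 and 0.373, adjusted p = 0.273 and 0.464; r = 0.207 to 0.358 without 2 of the P21 samples), with log2 values of 3.01, 5.05 and 8.52 in the 3 samples at P0.

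**Figure D2:**
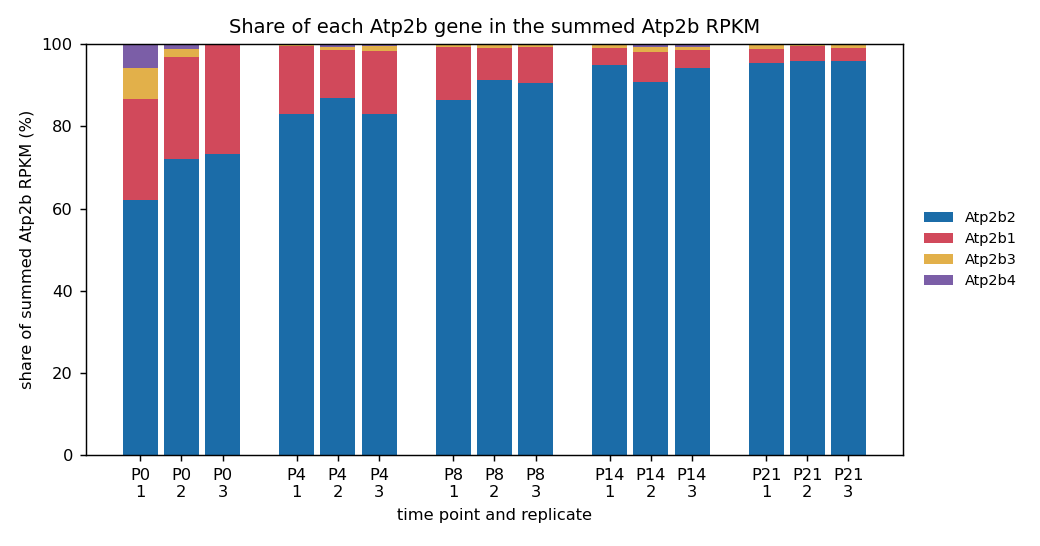
Share of each Atp2b gene (vertical, percent of the summed Atp2b RPKM) in each of the 15 samples (horizontal, time point above replicate number). The Atp2b2 share is 62.0% to 73.3% in the P0 samples and 95.4% to 96.0% in the P21 samples.

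Among the exchangers, Slc24a2 stood out. It encodes NCKX2, a neuronal exchanger of calcium and potassium against sodium. Slc24a2 measured 1.41, 1.77 and 2.49 RPKM at P0, 10.02, 9.39 and 7.56 at P4, and 13.2, 19.8 and 16.7 at P8. It measured 14.2, 14.9 and 15.7 RPKM at P14 and 30.3, 27.8 and 21.6 at P21. The P0 samples lay below all later ones, the P4 samples below all from P8 on, and the P21 samples above all others, while the P8 and P14 samples overlapped. The gene was 18.0-fold higher at P21 than at P0 (log2 fold change 4.17, SE 0.27, adjusted p = 1.75e-08, edgeR), and its slope was 0.150 log2 units per day (SE 0.026, adjusted p = 2.10e-04).

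Slc24a3, which encodes NCKX3, had 10 to 344 counts per sample. Its means were 3.39 ± 2.64 RPKM at P0 and 3.84 ± 2.97 at P4, 8.25 ± 3.19 at P8 and 8.36 ± 4.68 at P14, and 3.87 ± 1.34 at P21 (SD, n = 3). The highest sample was P14 replicate 2 with 13.8 RPKM, and without it the P14 mean was 5.66 RPKM. The P0 mean was 2.25 RPKM without P0 replicate 1, and the P4 mean was 2.24 RPKM without P4 replicate 1. Neither the slope (0.042, SE 0.039, adjusted p = 0.477) nor the test of any difference between ages (adjusted p = 0.374, edgeR) passed. The log2 ratio of Slc24a2 to Slc24a3 was -0.31 ± 2.14 at P0 and 2.79 ± 0.72 at P21. Its relation to postnatal day had r = 0.572 and rho = 0.491 (permutation p = 0.0254 and 0.0675), which did not pass after adjustment over the 4 pairs (adjusted p = 0.0509 and 0.135), and r was 0.356 to 0.482 without 2 of the P21 samples and 0.266 without all 3. It passed without P0 replicate 3 (r = 0.681, adjusted p = 0.0147), without P4 replicate 2 (r = 0.685, adjusted p = 0.0125) and without P14 replicate 2 (r = 0.628, adjusted p = 0.0319).

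The 3 NCX genes were near the limit of detection. Slc8a1, the exchanger best known from heart muscle, had 0 counts in 3 samples and at most 3 in 8 of the 15. In the samples at 0, a count of 0 allows levels of up to 0.0356, 0.0296 and 0.0287 RPKM (3 counts, counting error only). Slc8a1 reached 62 counts in P0 replicate 1 and 59 in P14 replicate 2, and without these samples its means were 0.0121 RPKM at P0 and 0.0230 at P14. Slc8a2, which encodes the brain exchanger NCX2, had 8, 21 and 0 counts at P0, 2, 34 and 27 at P4, and 8, 3 and 30 at P8. It had 37, 92 and 15 at P14 and 19, 24 and 23 at P21. Deviations of Slc8a2 from the time point means had r = 0.871 with those of the interneuron sum, and those of Atp2b3 had r = 0.697. The part of interneuron RNA in these 2 levels was not tested. Slc8a3, which encodes NCX3 of brain and skeletal muscle, had 91, 20 and 9 counts at P0, 10, 21 and 100 at P4, and 16, 31 and 0 at P8, followed by 8, 64 and 8 at P14 and 20, 32 and 66 at P21. In all 3 genes the samples overlapped between all ages. Their slopes were 0.0051 (SE 0.078, adjusted p = 0.973) for Slc8a1, 0.088 (SE 0.060, adjusted p = 0.317) for Slc8a2 and -7.93e-04 (SE 0.051, adjusted p = 0.994) for Slc8a3. The summed NCX level was 1.15 ± 0.103 RPKM at P8 and 2.74 ± 2.80 at P14, where replicate 2 alone reached 5.95 RPKM and the mean without it was 1.13. Single samples also set the P0 and P4 means, which were 1.07 RPKM without P0 replicate 1 and 1.02 without P4 replicate 3. The log2 ratio of Slc8a2 to Slc8a1 had r = 0.356 and rho = 0.207 with postnatal day (permutation p = 0.191 and 0.464, adjusted p = 0.255 and 0.464; r = 0.307 to 0.473 without 2 of the P21 samples). In the 9 genes, the variance between replicates of 1 age was 13.7 to 240.6 times that of counting, so the spread was not set by counting alone.

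Ordered by mean RPKM, Atp2b2 came first at all 5 ages, beyond the larger SD of the neighbours. Atp2b1 came second from P0 to P8 and Slc24a2 second at P14 and P21. Slc24a2 had rank 5 at P0 with 1.89 ± 0.547 RPKM, below Slc24a3 and Atp2b3 by less than their SDs. At P8 and P14, Atp2b1 and Slc24a2 differed by less than the larger SD, and at P21 Slc24a2 exceeded Atp2b1 by more (26.6 ± 4.45 against 9.81 ± 0.909 RPKM). Slc24a3 held the fourth place from P4 on. Slc8a1 was last at every age, at 0.0368 to 0.243 RPKM. The neighbours among Atp2b3, Atp2b4, Slc8a2 and Slc8a3 mostly did not differ beyond their SDs. The sum of all 9 genes was 79.9 ± 9.29 RPKM at P0 and 328.9 ± 39.1 at P21, of which Atp2b2 made up 62.7 ± 9.49% and 86.1 ± 1.87%.

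**Figure D3:**
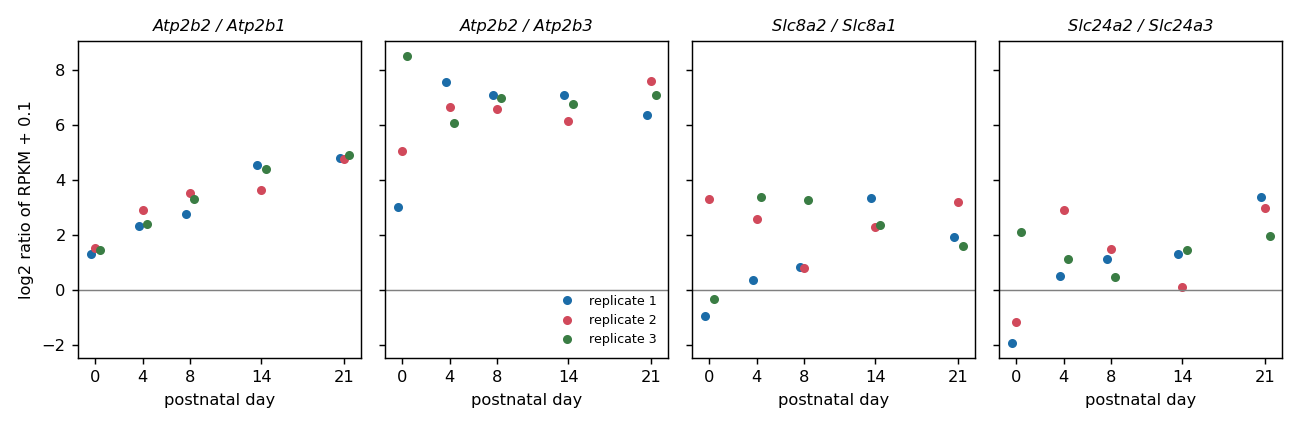
Log2 ratio of RPKM + 0.1 (vertical) for the 4 pairs of genes against postnatal day (horizontal), with 1 point per sample coloured by replicate number. The ratio of Atp2b2 to Atp2b1 goes from a mean of 1.44 at P0 to 4.83 at P21, and the samples of the other 3 pairs scatter widely at P0.

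Over all 14293 genes tested, 12.1% rose and 14.1% fell with postnatal day, and 19.3% differed between the ages in any way (edgeR, adjusted p below 0.05). Of the genes called in the trend 46.1% rose, and without TMM scaling 30.0%; dropping that scaling moves every log2 fold change from P0 to P21 by -0.36. Of the 9 genes, 2 rose (Atp2b2 and Slc24a2) and 0 fell by edgeR, DESeq2 and limma-voom alike, while 3 had an unadjusted p under 0.05 by edgeR, Atp2b1 being the third. The median slope of the 9 was 0.042 log2 units per day, against -0.0077 over all genes tested. The same 2 genes differed between the ages (adjusted p = 9.11e-08 for Atp2b2 and 1.93e-07 for Slc24a2), and the other 7 had adjusted p-values between 0.230 and 0.931. Between P0 and P21, 12.2% of all genes rose, as did 2 of the 9. While 10.6% of all genes fell, 0 of the 9 were called lower at P21 by edgeR (3 had an unadjusted p under 0.05, in either direction), whereas DESeq2 called Atp2b1 lower (log2 fold change -0.58, adjusted p = 0.0454).

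The steps between neighbouring ages were compared in turn, and for the step from P0 to P4 age and capture cannot be told apart. From P0 to P4, when 1.74% of all genes rose, Atp2b2 rose 1.99-fold (log2 0.99, SE 0.18, adjusted p = 0.00767, edgeR) and Slc24a2 rose 5.09-fold (log2 2.35, SE 0.25, adjusted p = 1.69e-04). From P4 to P8, when 0.882% rose, Atp2b2 rose 1.76-fold (log2 0.82, SE 0.18, adjusted p = 0.0344), and the log2 fold change of Slc24a2 was 0.89 (SE 0.24, adjusted p = 0.0888). From P8 to P14, when 1.29% rose, Atp2b2 rose 1.71-fold (log2 0.78, SE 0.18, adjusted p = 0.0278), and that of Slc24a2 was -5.47e-04 (SE 0.23). From P14 to P21, when 0.063% rose and 0.266% fell, no gene of the 9 passed by edgeR. Over this last step the log2 fold change was 0.26 (SE 0.18, adjusted p = 0.892) for Atp2b2 and 0.93 (SE 0.24, adjusted p = 0.163) for Slc24a2, the 1 gene of the 9 with an unadjusted p under 0.05 there, and DESeq2 called the latter (log2 0.96, adjusted p = 0.0141). Neighbouring steps share the samples of the age between them.

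Both later calls of Atp2b2 (log2 0.82 and 0.78 with all samples) lay near the threshold and were lost when some single samples were left out. The P4 to P8 step lost its call without any 1 of the 3 P4 samples (adjusted p = 0.0842, 0.0608 and 0.138), without any 1 of the 3 P8 samples (0.0883, 0.118 and 0.140) and without P14 replicate 3 (0.0549), at log2 fold changes of 0.72 to 0.88. The P8 to P14 step lost it without any 1 of the 3 P8 samples (adjusted p = 0.114, 0.0855 and 0.0755), without P14 replicate 1 (0.157) and without P14 replicate 3 (0.0938), at log2 fold changes of 0.62 to 0.81. The P0 to P4 calls of Atp2b2 and Slc24a2 held without each sample in turn (edgeR). In the fit with the replicate block, the P4 to P8 step of Atp2b2 had a log2 fold change of 0.81 with an adjusted p of 0.0646. Without TMM scaling the P8 to P14 step had a log2 fold change of 0.62 with an adjusted p of 0.0663.

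**Figure D4:**
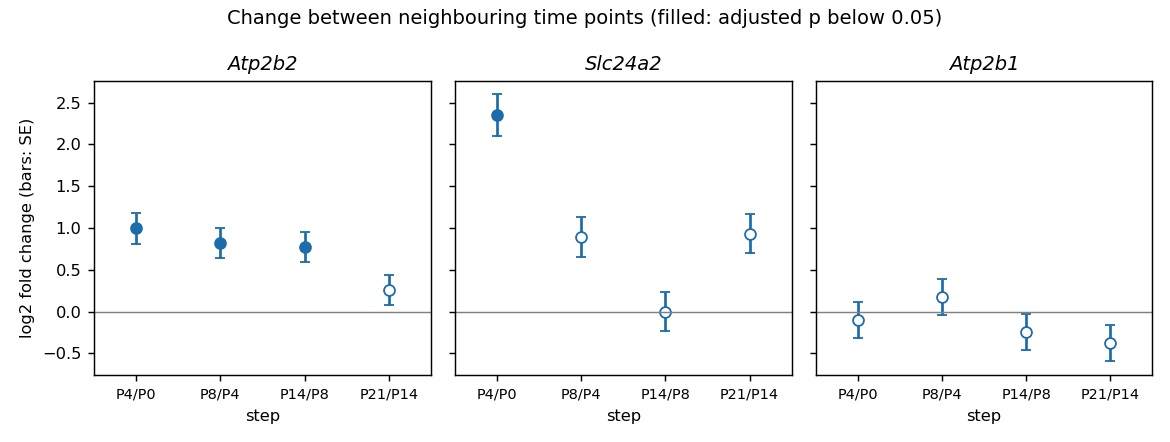
Log2 fold change (vertical) over the 4 steps between neighbouring ages (horizontal) for Atp2b2, Slc24a2 and Atp2b1, from the edgeR fit over 15 samples, with bars of 1 SE and filled points where the adjusted p was below 0.05. Atp2b2 passes at the first 3 steps, Slc24a2 at the first with 2.35, and Atp2b1 at none.

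The genes whose course was most like that of Atp2b2 over the 15 samples, of 9732 genes with a mean of at least 10 CPM, were Hpcal1 (r = 0.991), Rgs8 (r = 0.989) and Itm2b (r = 0.985). Atp2b2 had r = 0.974 (rank 19) with Itpr1, which encodes the calcium release channel of the PC endoplasmic reticulum. With Calb1, which encodes the calcium buffer calbindin, r was 0.961 (rank 56), and with Slc24a2 it was 0.931 (rank 188). The course of Atp2b1 was most like those of Zic1 (r = 0.945), Nkd1 (r = 0.873) and Nfib (r = 0.857), and its r with Atp2b2 was -0.453. For Slc24a2, ranked after its values were seen, they included Itpr1 (r = 0.973) and Rabl6 (r = 0.970). All are Pearson correlations of log2(CPM + 1) and describe samples that share age, capture and library. The summed PC markers had r = 0.981 with Atp2b2 and 0.952 with Slc24a2, and the summed oligodendrocyte markers 0.971 and 0.937. As deviations from the time point means, r with the PC markers was 0.488 for Atp2b2 and 0.623 for Slc24a2, and r with the oligodendrocyte markers was 0.532 and 0.367.

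Among the pump subunits and activators, 3 of 5 genes rose with age and 0 fell by edgeR (4 had an unadjusted p under 0.05). Over all genes tested, 12.1% rose and 14.1% fell. The median slope of the 5 was 0.039 log2 units per day. Nptn, which encodes neuroplastin, an obligatory partner of PMCAs at the membrane, measured 59.7 ± 4.32 RPKM at P0 and 112.1 ± 11.3 at P4, 118.2 ± 8.07 at P8 and 235.3 ± 39.3 at P14, and 244.0 ± 25.7 at P21 (SD, n = 3). Its slope was 0.113 (SE 0.011, adjusted p = 8.51e-07, edgeR). Calm2, which encodes calmodulin, had a slope of 0.067 (SE 0.0072, adjusted p = 1.63e-06), and Bsg, which encodes the second PMCA partner basigin, had 0.039 (SE 0.013, adjusted p = 0.0272). Calm3, which also encodes calmodulin, and Pdzd11, which encodes a PMCA-binding scaffold protein, did not pass (adjusted p = 0.233 and 0.133).

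Of the 4 other exchangers listed, only Slc8b1 was tested, and Slc24a4 had 0 counts in every sample. Slc8b1, which encodes the sodium/calcium exchanger of mitochondria and was named after its values were seen, had 0 counts in the 3 P0 samples and 9, 35 and 101 in the P21 samples ordered by size. It was higher at P21 than at P0 (adjusted p = 0.0211), while its slope did not pass (adjusted p = 0.0737, edgeR). Among 12 organelle pumps and uptake genes, of which 11 were tested, 4 rose and 2 fell with age, with a median slope of 0.033. The shares over all genes tested were 12.1% rising and 14.1% falling. Atp2a2 and Atp2a3, which encode the endoplasmic reticulum pumps SERCA2 and SERCA3, rose with slopes of 0.165 (SE 0.011, adjusted p = 1.33e-08) and 0.476 (SE 0.063, adjusted p = 1.66e-05). Atp2a2 measured 48.1 ± 5.66 RPKM at P0 and 442.3 ± 47.7 at P21, and Atp2a3 had 2 to 6 counts in the P0 samples and 272.5 ± 12.1 RPKM at P21 (SD, n = 3). Micu3, a regulator of the mitochondrial calcium uniporter that is enriched in brain, rose with a slope of 0.103 (SE 0.013, adjusted p = 7.30e-06), and Atp2c1, the Golgi calcium pump, with 0.065 (SE 0.014, adjusted p = 0.00224). Micu2, another regulator of the uniporter, fell with a slope of -0.141 (SE 0.021, adjusted p = 5.95e-05), from 15.9 ± 2.44 RPKM at P0 to 1.59 ± 0.553 at P21. Mcub, a pore subunit that dampens the uniporter, also fell (adjusted p = 0.00155, edgeR). It had 68, 16 and 0 counts at P0, 0, 76 and 12 at P4, and 1, 0 and 0 at P8. At P14 and P21 all samples had 0.

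**Figure D5:**
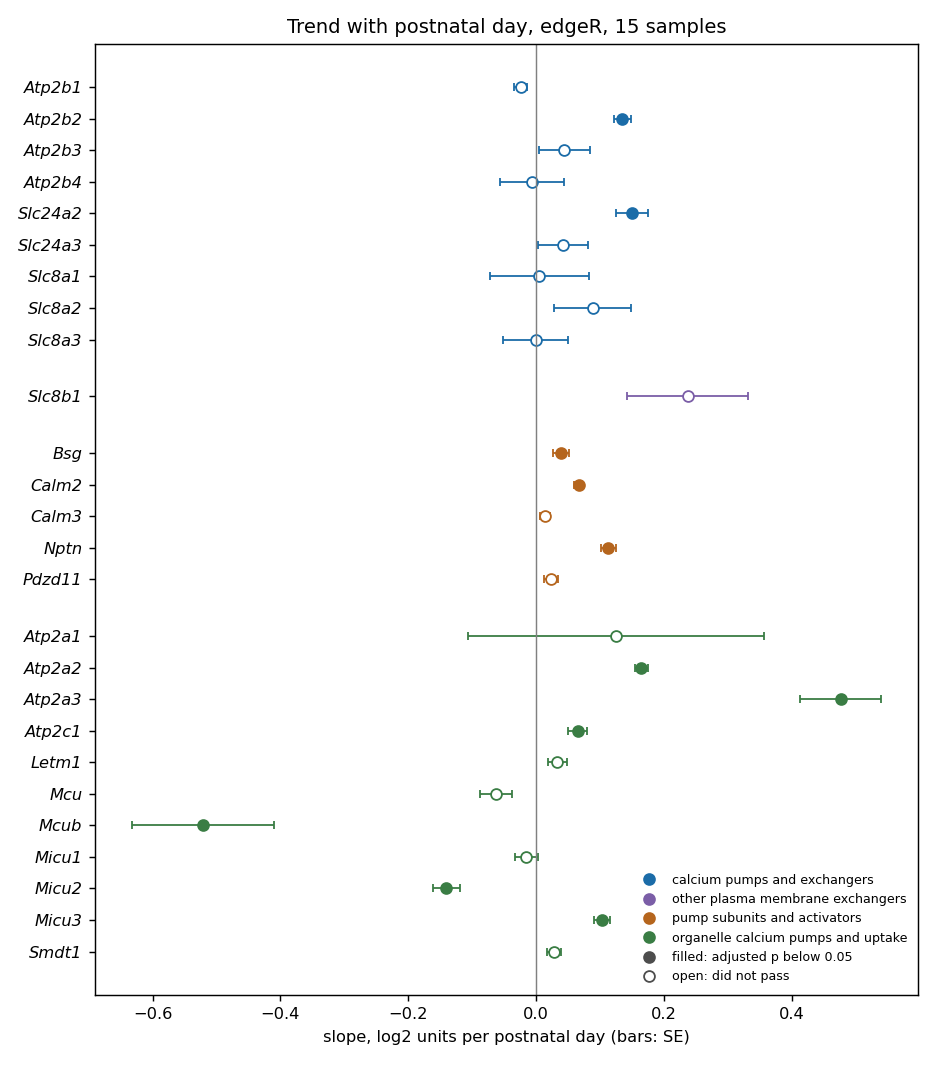
Slope of each tested gene with postnatal day (horizontal, log2 units per day, bars of 1 SE) for the 9 pumps and exchangers and the 3 related lists (vertical, coloured by list). Filled points had an adjusted p below 0.05 in the edgeR fit over 15 samples, and those of the 9 are Atp2b2 with 0.135 and Slc24a2 with 0.150.

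RefSeq promoter windows on GRCm38.p6, of 250 bases before and 50 after a start, were matched to 8 of the 9 genes, with 13 windows in all and 3 for Atp2b2. Neither ANTNGGTCA, the core of the response element of ROR nuclear receptors, nor TGACGTCA, the cyclic AMP response element, was present on either strand in any of the 13. Over 32851 windows of that length, 2.24% and 1.79% held them. The share of G and C bases was 54.0% to 72.7% in the Atp2b2 windows, 38.7% and 60.0% in those of Slc24a2 and 79.3% in both of Atp2b1.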

How the data were processed

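Laser-captured PCs of 5 ages (3 samples each) were sequenced after SMARTer amplification. The deposited files hold unnormalized read counts per Ensembl gene, 1 per sample, which the authors made with cutadapt 1.2.1, GSNAP (unique alignments to mm10, GRCm38.p1) and HTSeq 0.5.3p9, as the submitters' processing notes and the methods give them. The annotation release is not given in the sources used here. Reads tallied as no feature (16.7% to 29.8%) were kept apart. The counting took only reads that lay wholly within a feature.

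Of 38561 identifiers, 36639 matched GENCODE M21. From the counts, RPKM was computed with summed exon lengths. Genes kept by filterByExpr (14293) were fitted with edgeR 4.0.16 in R 4.3.3 (quasi-likelihood F test, TMM, Benjamini-Hochberg at 0.05 over all of them), on postnatal day as a number and on age as a factor with contrasts. A slope's SE came from its F statistic. CPM uses TMM library sizes. Ratios used 100000 permutations (Python 3.11.15). Alternatives were RLE scaling, no TMM, no filter, DESeq2 1.42.0, limma-voom (limma 3.58.1), the replicate block, log2(day + 1), P0 left out and each sample left out. The fits were tested on simulated counts.

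The members and gene lists were chosen with earlier results of these data known. All 9 members were named, and from the 3 related lists (other exchangers, pump subunits and activators, organelle pumps and uptake) those past the threshold in the trend, beside marker lists of 7 cell types. The 3 genes most like Atp2b2 and Atp2b1, the members with the highest mean RPKM, were named by Pearson r. Some listed or selected items, and 1 sequence, are not reported here.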

Additional observations from a re-analysis of the deposited data

How the results depend on the processing

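The NCX genes, Atp2b3 and Atp2b4 had the fewest counts, from 187 over the 15 samples for Slc8a1 to 848 for Atp2b4, and with 3 samples per age single libraries set many of their means. The rising trends of Atp2b2 and Slc24a2 and their rise from P0 to P21 passed under every alternative run, with slopes of 0.107 to 0.145 and 0.0932 to 0.163 log2 units per day.

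For counts among the 9 genes, dropping TMM scaling gave 1 falling in the trend, 1 falling from P0 to P21 and 0 rising from P8 to P14. DESeq2 gave 2 rising from P4 to P8, 2 from P8 to P14, 1 from P14 to P21 and 1 falling from P0 to P21. Leaving out P0 gave 2 rising from P4 to P8. The replicate block gave 0 there. Deviations of samples with equal numbers showed no relation on average (mean r -0.0036 over 30 pairs, range -0.033 to 0.055). Such a mean over all genes cannot show a pairing that acts on few genes. The block changed no other such count. With single samples left out, these counts were 0 to 1 for falling in the trend and from P0 to P21, and 0 to 1 for rising from P4 to P8 and from P8 to P14.

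Over all genes, DESeq2 called 557 rising from P0 to P4, 323 from P4 to P8, 398 from P8 to P14 and 50 from P14 to P21, against 248, 126, 185 and 9 by edgeR. limma-voom called 202, 386 and 42 in the last 3 steps. Leaving out P0 gave 231 and 318 from P4 to P8 and from P8 to P14, and no filter gave 14 from P14 to P21. With single samples left out these ranged from 67 to 161, from 89 to 244 and from 3 to 11.

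The ratio of Atp2b2 to Atp2b3 had r = 0.656 (adjusted p = 0.00592) with a pseudocount of 1 RPKM. That of Slc24a2 to Slc24a3 had r = 0.661 (adjusted p = 0.00861) with that pseudocount and 0.580 (adjusted p = 0.0468) on log2(day + 1), and 0.483 to 0.685 with single samples left out.

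Members without a call changed sign. For Atp2b4 the slope was 0.041 by limma-voom, 0.0041 with the replicate block, 0.076 without P0 and -0.021 to 0.062 with single samples left out. For Slc8a1 it was -0.011 without TMM and -0.024 to 0.171 with single samples left out, and -0.090 per unit of log2(day + 1) in that fit. For Slc8a3 it was 0.031 by limma-voom, 0.020 without P0 and -0.017 to 0.035 with single samples left out. The P8 to P14 step of Slc24a2 was 0.0070 with RLE, 0.019 without the filter, 0.0069 by DESeq2, 0.015 by limma-voom, 0.011 with the replicate block, 0.0081 without P0, and -0.14 to 0.16 with single samples left out. From P0 to P21, Slc8a1 was at 0.36 by limma-voom and 0.63 with the block, and Slc8a3 at -0.30 without TMM. With single samples left out, that difference was -1.49 to 3.399 for Slc8a1, -0.46 to 1.42 for Slc8a3, -0.20 to 1.65 for Atp2b3, -1.87 to 0.45 for Atp2b4 and -0.0080 to 1.096 for Slc24a3. The steps of Atp2b1 were -0.29 to 0.017 from P0 to P4 and -0.048 to 0.33 from P4 to P8. The causes of these changes were not tested.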
